A study of Mus musculus with 30 samples.

Results

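The genes of the proteasome and of its assembly were measured in liver RNA of db/db mice, which lack a functional leptin receptor and become obese and diabetic, after sebacic acid was added to their food. Members were all probes whose annotated symbol begins with Psma to Psmg and a number. The pattern took 67 probes for 45 genes. Of these genes, 43 encode subunits, regulators or assembly chaperones of the proteasome, and 41 of the 43 were detected, among 7905 detected genes in all. Psma1 and Psma6, subunits of the α ring, were detected on 0 arrays, and no level is given for them. The pattern also took Psmc3ip and Psme3ip1, which are interaction partners and not subunits, and both were left out of the counts. Psma8, Psmb11, Psmd3, Psmg4 and Psmf1 were not analysed here.

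The arrays compared livers of 15 mice given sebacic acid (SA_15%) with livers of 15 mice on the control diet (Ctrl), with 1 array per mouse. All mice were male and of the strain BKS.Cg-m+/+Leprdb/J (db/db), and were 6 to 8 weeks old when first housed, before a period of habituation. SA_15% mice took 15% of their energy as sebacic acid, a dicarboxylic acid of medium chain length, which came to 77.6 g per kg of food, for 6 weeks. Both groups carry the same mutation, so the comparison is within 1 diabetic strain and holds no lean mice. SA_15% arrays had 11213 to 11783 detected probes and Ctrl arrays 10984 to 11697, and mean intensities were 327 to 498 in SA_15% and 314 to 451 in Ctrl. The brightest probe of each array reached 33437.5 to 44012.6 in SA_15% and 25523.2 to 35473.8 in Ctrl. Of 10 hepatocyte markers 7 were detected, and Ttr, Apoa1 and Cyp2e1 lay at median log2 signals of 14.71 to 14.86 in SA_15% livers and 14.51 to 14.67 in Ctrl livers. The probes for Alb and Tat did not pass the detection filter, although both genes also define hepatocytes.

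The proteasome is the protease that degrades proteins tagged with ubiquitin. Its barrel-shaped core has outer α rings and inner β rings, and the β subunits Psmb5, Psmb6 and Psmb7 carry the active sites. In cells exposed to interferon-γ the inducible subunits Psmb8, Psmb9 and Psmb10 take their places and form the immunoproteasome. A cap of ATPases (Psmc genes) and non-ATPase subunits (Psmd genes) binds, unfolds and feeds the substrate. Psme1 and Psme2 form another, ATP-independent activator, induced by interferon-γ and linked to the making of peptides for MHC class I. Psme3 forms a related activator that is mainly nuclear. In hepatocytes the proteasome is a main route of regulated protein turnover.

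Because Psme1 and Psme2 were higher and Psme3 lower in SA_15% livers, and because Psmb8 and Psmb9 varied between mice, the sequences around their start sites are shown, from RefSeq on GRCm38.p6. Each has 250 bases before the start site and 50 bases from it on, 5′ to 3′. Capitals mark a motif match on either strand.
Psme1 (chr14:55578244-55578543, plus strand): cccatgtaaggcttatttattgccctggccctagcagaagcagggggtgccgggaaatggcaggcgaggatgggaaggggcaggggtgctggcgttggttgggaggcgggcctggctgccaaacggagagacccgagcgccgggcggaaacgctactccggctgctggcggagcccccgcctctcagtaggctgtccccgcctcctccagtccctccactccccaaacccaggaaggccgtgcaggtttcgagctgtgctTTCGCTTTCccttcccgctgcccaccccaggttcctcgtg
Psme2 (chr14:55590972-55591271, minus strand): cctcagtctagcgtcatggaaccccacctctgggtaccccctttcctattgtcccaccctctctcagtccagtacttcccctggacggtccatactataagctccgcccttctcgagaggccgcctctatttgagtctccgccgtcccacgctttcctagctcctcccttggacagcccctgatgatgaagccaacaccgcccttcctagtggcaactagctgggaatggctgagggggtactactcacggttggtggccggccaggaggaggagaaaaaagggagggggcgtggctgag
Psme3 (chr11:101315963-101316262, plus strand): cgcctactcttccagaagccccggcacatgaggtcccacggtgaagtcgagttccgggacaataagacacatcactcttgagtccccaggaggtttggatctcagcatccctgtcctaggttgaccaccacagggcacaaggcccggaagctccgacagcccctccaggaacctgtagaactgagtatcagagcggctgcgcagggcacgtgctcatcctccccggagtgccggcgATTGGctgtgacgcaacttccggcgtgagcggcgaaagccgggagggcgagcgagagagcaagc
Psmb8 (chr17:34197945-34198244, plus strand): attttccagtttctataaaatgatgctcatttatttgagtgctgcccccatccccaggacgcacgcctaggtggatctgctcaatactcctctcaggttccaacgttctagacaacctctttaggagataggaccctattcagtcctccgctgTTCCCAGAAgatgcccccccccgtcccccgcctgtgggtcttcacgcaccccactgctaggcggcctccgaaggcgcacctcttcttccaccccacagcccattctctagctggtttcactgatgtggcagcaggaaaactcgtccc
Psmb9 (chr17:34187281-34187580, minus strand): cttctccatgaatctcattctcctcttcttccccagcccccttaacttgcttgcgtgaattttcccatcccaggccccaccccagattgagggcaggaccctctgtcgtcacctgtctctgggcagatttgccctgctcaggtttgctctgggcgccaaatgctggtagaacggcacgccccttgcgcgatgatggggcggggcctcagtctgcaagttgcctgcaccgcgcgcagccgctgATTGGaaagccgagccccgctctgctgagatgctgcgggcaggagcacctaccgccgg

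Windows were used for 35 of the 41 genes (37 windows of 300 bases), and 4 motifs were searched on both strands. Psmb1, Psmb2, Psmb7, Psmc3, Psmd7 and Psmg2 were not searched. The interferon-stimulated response element core, GAAANNGAA, was in 6 of 35 genes (17.1%), against 8.56% of all 32851 windows. The 6 were Psme1, Psmd4, Psmd9, Psmc2, Psmb3 and Psmb4. In Psme1 the match is in capitals as its reverse complement and begins at base 11 from the start site on. The gamma-activated site core, TTCNNNGAA, was in 3 genes (8.57%), against 8.3% of all windows: Psmb8, where it begins at base −97 from the start site, Psmd2 and Psmg1. The antioxidant response element core, TGACNNNGC, to which Nfe2l1 is known to bind at proteasome genes, was in 6 genes (17.1%), against 12.4% of all windows: Psmb5, Psmb6, Psmc6, Psmd9, Psmd12 and Psme4. The CCAAT box, CCAAT, was in 11 genes (31.4%), against 37.4% of all windows, and is the match in capitals in Psme3 and Psmb9. Matches to GAAANNGAA and TTCNNNGAA can overlap, but each printed window holds at most 1 match. The Psme2 window holds none. A member gene counted where any of its windows held a match, while the share over all was counted by single window. The compared shares therefore differ in unit. A match describes these letters only.

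Of the 41 genes, 21 (51.2%) passed an adjusted p of 0.05 (limma, Benjamini-Hochberg over 11329 detected probes), 8 higher and 13 lower in SA_15% livers. Among all detected genes the share was 37.5%, with 18% higher and 19.5% lower. The median log2 difference was −0.01 over the 41 genes and −0.01 over all genes, and the median size of the difference was 0.11 over the 41 and 0.09 over all. Calls ran in both directions and the changes were small, with log2 differences of −0.33 (Psme3) to 0.29 (Psmd8, 22.3% more signal). These values come from a fit without background subtraction. Over the other settings the differences ran from −0.50 (Psmd6) to 0.39 (Psmd5). At the threshold the methods name, an unadjusted p of 0.001 and a fold of 1.3, 0 of the 41 genes passed, against 4.28% of all genes. Both counts used the normalization of the main fit, but fitted all probes without the detection filter. The number of calls in each direction rests on the scaling. When arrays were centred on their medians without quantile normalization, 2 of the 41 were called higher and 19 lower, and the members' median was −0.11. The array medians were taken over all 25697 probes, of which 11329 passed the detection filter, with no background subtracted. They were 63.8 to 79.0 in SA_15% and 55.7 to 73.3 in Ctrl, and their part in the lost calls was not tested. Of the 21 called genes only Psmd13 changed its sign under this scaling. Over all genes that scaling called 6.67% higher and 27.7% lower, so that 19.4% of the genes called were higher, against 48% after quantile normalization. The 13 lower calls held under both scalings. Of the 8 higher calls, Psme2 and Psmd5 held and 6 were lost.

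**Figure D1:**
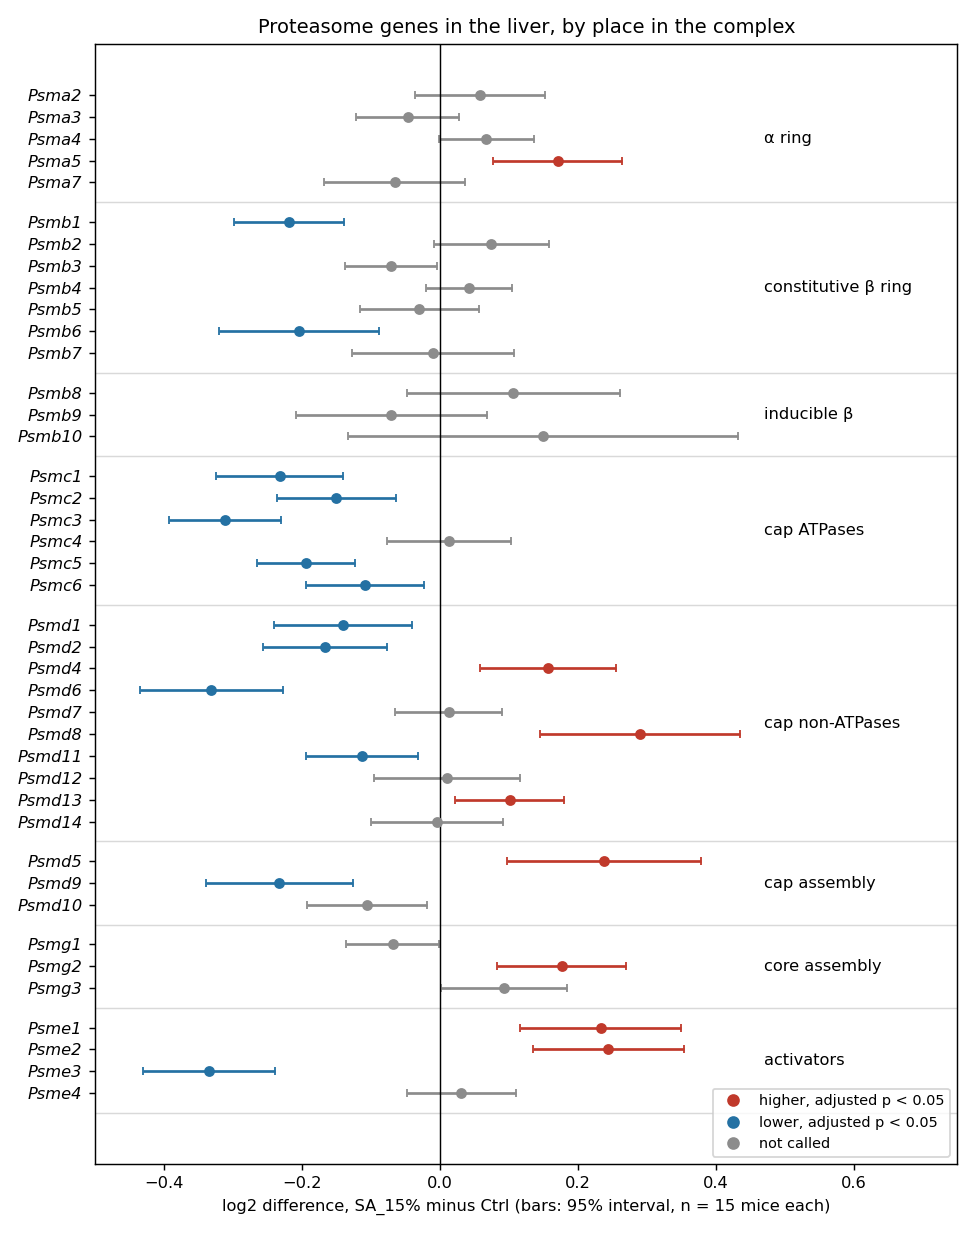
The log2 difference, SA_15% minus Ctrl (x axis), of each of the 41 detected genes (y axis), grouped by place in the complex, with 95% intervals over 15 mice per group and colours for calls at an adjusted p of 0.05. Of the 6 cap ATPases 5 lie below 0, while cap non-ATPases and activators lie on both sides. After centring on array medians 6 of the 8 higher calls were lost, and Psmd13 turned from 0.10 to −0.04.

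The ATPases of the cap were the class with most lower calls. These 6 proteins form the hexameric ring that opens the core and threads the substrate into it. Of the 6 genes 5 fell, at a median log2 difference over the 6 of −0.17, and the 5 calls held under both scalings. Among all genes 19.5% were called lower, and 27.7% after centring on array medians. Psmc3 had log2 signals of 9.88 (lowest), 10.08 (median) and 10.14 (highest) in SA_15% livers, against 10.15, 10.35 and 10.57 in Ctrl livers. All 15 SA_15% livers lay below the lowest Ctrl liver. Over all genes 7.31% had every SA_15% liver below the Ctrl median. The share with livers beyond the range of the other group, here and below, was not counted over all genes. The log2 difference was −0.31 ± 0.04 (SE, adjusted p = 3.45e-07), a fold of 0.805. Psmc1 fell by 0.23 on the log2 scale (SE 0.05, adjusted p = 0.000159), Psmc5 by 0.19 (SE 0.03, adjusted p = 5.47e-05) and Psmc2 by 0.15 (SE 0.04, adjusted p = 0.0059). A second probe for Psmc5 gave −0.05 (adjusted p = 0.381). Psmc6 was dim, detected on 8 SA_15% and 12 Ctrl arrays, and its difference of −0.11 (adjusted p = 0.0415) lost its call when any 1 of 14 mice was left out (adjusted p up to 0.0757; SA_15% mice 1, 2, 3, 4, 10, 11, 13 and 14, and Ctrl mice 4, 6, 8, 10, 12 and 14). Psmc4 did not pass, at 0.01 (95% interval −0.08 to 0.10).

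The non-ATPase subunits of the cap divided, with 3 of 10 higher, 4 lower and 3 not called. Among all genes 18% were called higher and 19.5% lower. Psmd6, a subunit of the lid, had log2 signals of 6.59, 6.82 and 7.02 in SA_15% livers, against 6.84, 7.18 and 7.47 in Ctrl livers. Every SA_15% liver lay below the Ctrl median, and 8 lay below the lowest Ctrl liver. The difference was −0.33 ± 0.05 (SE, adjusted p = 5.92e-06). The base scaffolds Psmd1 and Psmd2 and the lid subunit Psmd11 fell as well, with differences of −0.14, −0.17 and −0.11 (adjusted p = 0.0242, 0.00371 and 0.0258). A second, dimmer probe for Psmd11 gave −0.13 (adjusted p = 0.0649), and its call was lost with 1 error pooled over all probes (adjusted p = 0.087). Psmd8, another lid subunit, went the other way. Its log2 signals were 10.22, 10.49 and 11.04 in SA_15% livers, against 9.94, 10.24 and 10.45 in Ctrl livers. The groups overlapped, with 8 SA_15% livers above the highest Ctrl liver, and the difference was 0.29 ± 0.07 (SE, adjusted p = 0.0018).

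Psmd4, a receptor for ubiquitin chains in the cap, was higher by 0.16 ± 0.05 (SE, adjusted p = 0.0118). All 15 SA_15% livers lay above the Ctrl median, but 0 lay above the highest Ctrl liver. Psmd13, of the lid, was higher by 0.10 (adjusted p = 0.0396). That call was lost when any 1 of 14 mice was left out (adjusted p up to 0.0694; SA_15% mice 5, 6, 9, 10, 11, 13 and 15, and Ctrl mice 7, 8, 9, 12, 13, 14 and 15). Centring on array medians lost all 3 higher calls of this class, with Psmd8 at 0.17 (adjusted p = 0.172), Psmd4 at 0.02 (adjusted p = 0.792) and Psmd13 turned to −0.04 (adjusted p = 0.656). Psmd7, Psmd12 and Psmd14, the last of which removes ubiquitin from the substrate, had differences of 0.01, 0.01 and −0.01 (adjusted p = 0.82, 0.901 and 0.942). For Psmd12 a second, dimmer probe was lower (−0.28, adjusted p = 5.34e-05), and the mean over both probes reversed the direction (−0.14, adjusted p = 0.0186).

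**Figure D2:**
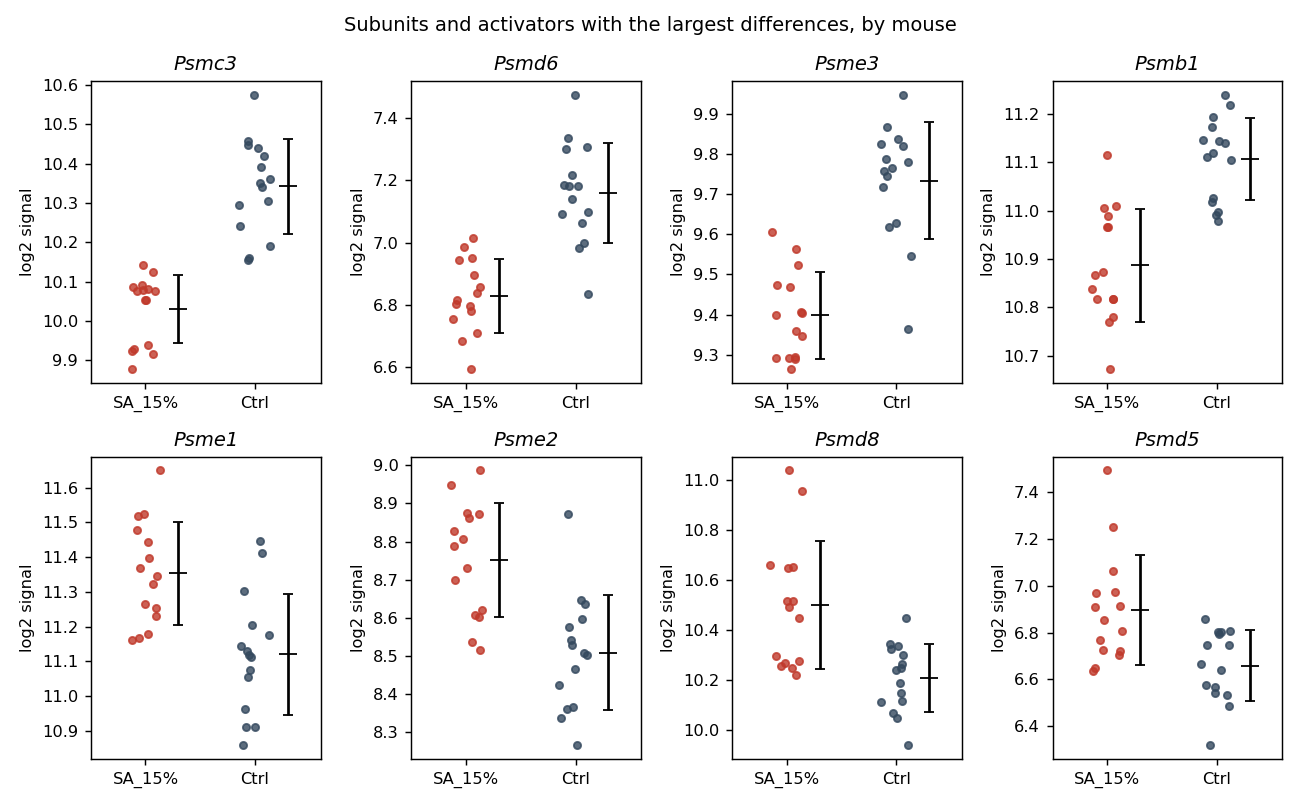
The log2 signal (y axes) of 8 genes in each mouse, 15 SA_15% (red) and 15 Ctrl (dark) points per panel, with the mean and SD as a bar. The groups do not overlap for Psmc3 and overlap in the other 7 panels, with SA_15% lower in the top row and higher in the bottom row. The share of all genes without overlap was not counted. The higher calls of Psme1 and Psmd8 were lost after centring on array medians.

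After quantile normalization fewer genes were called in the constitutive core than in the cap. Of its 12 detected α and β genes 3 (25%) were called, and of the 16 cap genes 12 (75%), against 37.5% of all genes. The difference between core and cap was not tested, and these shares depend on the scaling. After centring on array medians Psma3, Psmb3, Psmb5 and Psmb7 of the core became lower calls, and Psma5 lost its call. In the cap Psmd4, Psmd8 and Psmd13 lost theirs. Under that scaling 6.67% of all genes were called higher and 27.7% lower. Psma5, of the α ring, had log2 signals of 11.63, 11.75 and 12.01 in SA_15% livers, against 11.41, 11.65 and 11.84 in Ctrl livers. Of the SA_15% livers 13 lay above the Ctrl median, and the difference was 0.17 ± 0.05 (SE, adjusted p = 0.00416), with 0.04 (adjusted p = 0.713) after centring on array medians. The other α genes, Psma2, Psma3, Psma4 and Psma7, did not pass, with differences of −0.07 to 0.07, and a second probe for Psma7 gave 0.06 where the brightest gave −0.07. Psmb1, a β subunit without catalytic activity, was lower. Its log2 signals were 10.67, 10.87 and 11.12 in SA_15% livers, against 10.98, 11.12 and 11.24 in Ctrl livers. All 15 SA_15% livers lay below the Ctrl median and 11 below the lowest Ctrl liver, with a difference of −0.22 ± 0.04 (SE, adjusted p = 5.36e-05).

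The active-site subunits of the constitutive core were measured by probes of different strength, and their levels are not compared. Psmb5, the chymotrypsin-like subunit, had 8.98, 9.17 and 9.48 in SA_15% livers, against 9.08, 9.26 and 9.35 in Ctrl livers, a difference of −0.03 (95% interval −0.12 to 0.06, adjusted p = 0.604). Psmb6, the caspase-like subunit, had 6.23, 6.43 and 6.64 in SA_15% livers, against 6.33, 6.58 and 7.08 in Ctrl livers. It was lower by a difference of −0.20 ± 0.06 (SE, adjusted p = 0.0055), with 14 of 15 SA_15% livers under the median of Ctrl. Psmb7, the trypsin-like subunit, had 10.75, 11.15 and 11.44 in SA_15% livers, against 10.69, 11.22 and 11.28 in Ctrl livers by its brightest probe. That probe gave −0.01 (95% interval −0.13 to 0.11, adjusted p = 0.904). Its other probes were lower in SA_15% livers, at −0.17 (adjusted p = 0.0021) and −0.27 (adjusted p = 5.71e-06), so that the call for Psmb7 depends on the probe. The mean over the detected probes of Psmb7 was lower (−0.15, adjusted p = 0.00101). Psmb2, Psmb3 and Psmb4, which shape the β ring, did not pass (0.07, −0.07 and 0.04), and Psmb3 passed when SA_15% mouse 13 was left out (adjusted p = 0.0186).

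None of the 3 inducible subunits passed the test, and all 3 varied between mice of the same group. With 1 error pooled over all probes, which takes no account of that spread, Psmb10 passed (adjusted p = 0.0264). Psmb8 had log2 signals of 6.26, 6.79 and 7.04 in SA_15% livers, against 6.39, 6.62 and 7.20 in Ctrl livers, a difference of 0.11 (95% interval −0.05 to 0.26, adjusted p = 0.282). Psmb9 was dim, detected on 14 SA_15% and 13 Ctrl arrays, which limits its difference and its correlations below. Psmb9 had 6.11, 6.35 and 6.57 in SA_15% livers, against 6.16, 6.32 and 7.08 in Ctrl livers, a difference of −0.07 (95% interval −0.21 to 0.07, adjusted p = 0.439). Psmb10 had 8.54, 9.53 and 9.98 in SA_15% livers, against 8.69, 9.25 and 10.00 in Ctrl livers, a difference of 0.15 (95% interval −0.13 to 0.43, adjusted p = 0.418). The groups overlapped for all 3, and the highest Psmb9 values were in Ctrl livers. The SD of Psmb10 within groups was 0.41, larger than that of 98.4% of detected genes, and that of Psmb8 was 0.22, larger than 89.5%. The median SD was 0.12 over the 41 genes and 0.13 over all genes. A second probe for Psmb10 gave a like difference (0.16, adjusted p = 0.352).

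Each inducible subunit takes the place of a constitutive one, so their log2 difference was compared within each array, with a permutation test of 100000 resamples adjusted over the 3 pairs. Psmb8 against Psmb5 changed by 0.14 (95% interval −0.03 to 0.31, adjusted p = 0.207). Psmb9 against Psmb6 changed by 0.13 (−0.05 to 0.31, adjusted p = 0.207). Psmb10 against Psmb7 changed by 0.16 (−0.23 to 0.55, adjusted p = 0.4) by the brightest probe of Psmb7, whose other probes were lower in SA_15% livers. With the mean over detected probes no pair changed its call. None passed, and the intervals allow shifts in either direction. Of the 15 SA_15% livers, 12 lay above the Ctrl median for Psmb8 against Psmb5, 13 for Psmb9 against Psmb6 and 10 for Psmb10 against Psmb7. Leaving out Ctrl mouse 2 changed the calls of the first pairs, though not those of Psmb8 and Psmb9 as single genes. Without it, Psmb8 against Psmb5 changed by 0.18 (adjusted p = 0.0426) and Psmb9 against Psmb6 by 0.20 (adjusted p = 0.0069).

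The inducible subunits were high or low in the same mice. Ctrl mice 2 and 7 had the highest values of all 3 in their group, with Psmb8 at 7.20 and 6.96, Psmb9 at 7.08 and 6.77, and Psmb10 at 10.00 and 9.93. Among SA_15% mice, mice 1, 2 and 9 were highest for all 3, with Psmb10 at 9.92, 9.98 and 9.72, and mice 13 and 14 were lowest for Psmb10, at 8.54 and 8.58. Pearson correlations within groups were tested for 20 combinations of pair and group (permutation, 15 mice each, Benjamini-Hochberg over the 20). Psmb8 and Psmb10 had r = 0.807 (adjusted p = 0.00253; Spearman rho 0.771, adjusted p = 0.00773) in SA_15% livers and r = 0.825 (adjusted p = 0.00253; rho 0.786, adjusted p = 0.00773) in Ctrl livers. Without the 2 mice farthest from the median of Psmb8, r was 0.704 in SA_15% livers and 0.608 in Ctrl livers.

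Psmb9 and Psmb10 had r = 0.779 (adjusted p = 0.0032; rho 0.796, adjusted p = 0.00773) in SA_15% livers and r = 0.772 (adjusted p = 0.00368; rho 0.618, adjusted p = 0.0551) in Ctrl livers, with 0.643 (SA_15%) and 0.446 (Ctrl) without the 2 farthest mice. Psmb8 and Psmb9 had r = 0.633 (adjusted p = 0.0365; rho 0.532, adjusted p = 0.111) in SA_15% livers and r = 0.898 (adjusted p = 0.0012; rho 0.739, adjusted p = 0.011) in Ctrl livers, with 0.408 (SA_15%) and 0.640 (Ctrl) without the 2 farthest mice. In each of these cases r was lower without the 2 farthest mice. Leaving them out narrows the spread of the first gene, which can lower r by itself. The fall therefore cannot tell how far these relations rest on few mice. Psmb10 and the Psmb7 it replaces had r = −0.618 (adjusted p = 0.0365; rho −0.418, adjusted p = 0.26) in SA_15% livers, which was −0.288 without the 2 farthest mice, and r = −0.409 (adjusted p = 0.288) in Ctrl livers. This used the brightest probe of Psmb7, which differed in call from its other probes, and those were not correlated with Psmb10. No other pair passed. Psmb5 and Psmb8 had r = 0.305 in SA_15% livers and 0.027 in Ctrl livers (adjusted p = 0.47 and 0.989).

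**Figure D3:**
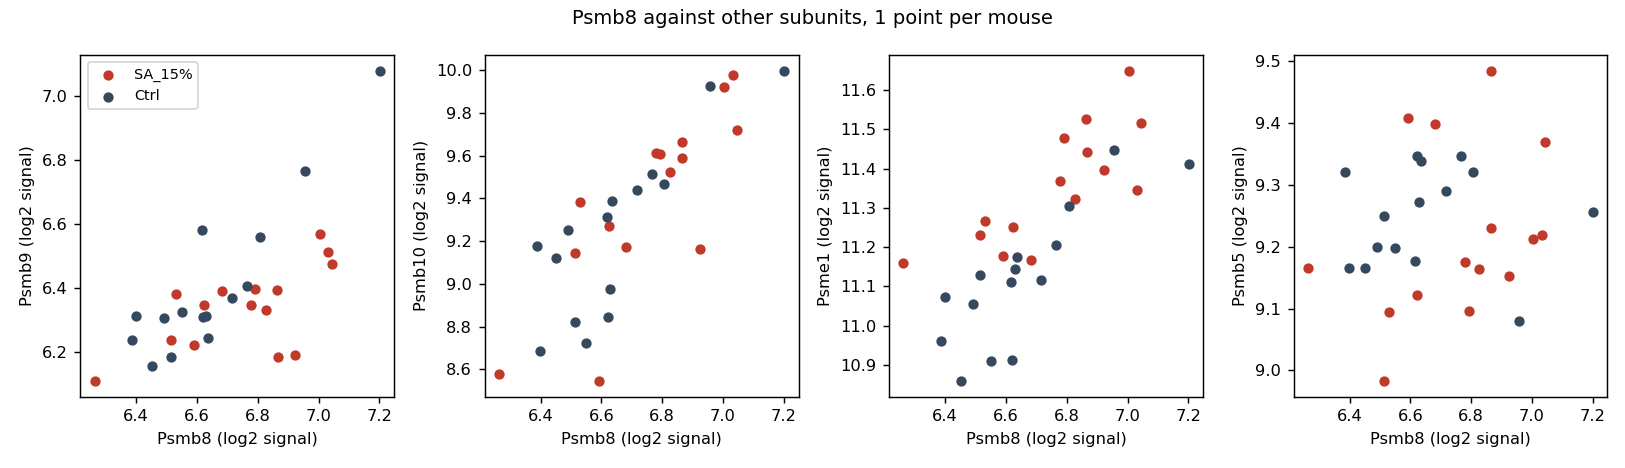
The log2 signal of Psmb8 (x axes) against that of Psmb9, Psmb10, Psme1 and Psmb5 (y axes), with 1 point per mouse, 15 SA_15% (red) and 15 Ctrl (dark). Pearson r of Psmb8 and Psmb10 was 0.807 in SA_15% and 0.825 in Ctrl, that of Psmb8 and Psmb5 was 0.305 in SA_15% and 0.027 in Ctrl, and Ctrl mouse 2 lies at the far upper right of the first 2 panels.

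The genes of the ATP-independent activators were called in opposite directions. Psme1 had log2 signals of 11.16, 11.35 and 11.65 in SA_15% livers, against 10.86, 11.12 and 11.45 in Ctrl livers. All 15 SA_15% livers lay above the Ctrl median and 4 above the highest Ctrl liver, and the difference was 0.23 ± 0.06 (SE, adjusted p = 0.00188). A second probe gave 0.25 (adjusted p = 0.000569). Psme2, its partner in the ring, had 8.51, 8.79 and 8.99 in SA_15% livers, against 8.26, 8.51 and 8.87 in Ctrl livers. Again all 15 lay above the Ctrl median, against 7.12% of all genes with this separation, and the difference was 0.24 ± 0.05 (SE, adjusted p = 0.000637). After centring on array medians Psme2 kept its call (0.16, adjusted p = 0.00779) and Psme1 lost it (0.09, adjusted p = 0.412). The mouse genome holds a near-identical copy of Psme2, Psme2b, and whether the probe tells them apart was not tested.

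Psme3 had 9.26, 9.40 and 9.61 in SA_15% livers, against 9.36, 9.76 and 9.95 in Ctrl livers. All 15 SA_15% livers lay below the Ctrl median and 7 below the lowest Ctrl liver, where 7.31% of all genes had every SA_15% liver below the Ctrl median. The difference was −0.33 ± 0.05 (SE, adjusted p = 1.45e-06), a fold of 0.793. Psme4, an activator with a role in histone turnover, did not pass (0.03, 95% interval −0.05 to 0.11). Within an array the log2 signal of Psme1 minus that of Psme3 had a median of 1.99 in SA_15% livers and 1.35 in Ctrl livers, and 10 of 15 SA_15% livers lay above the highest Ctrl liver. For Psme2 minus Psme3 the median was −0.54 in SA_15% livers and −1.33 in Ctrl livers, and 5 of 15 lay above the highest Ctrl liver. These comparisons were chosen after their values were seen and carry no test. Psme3ip1, a binding partner of Psme3, was lower by both probes (−0.11 and −0.12, adjusted p = 0.0234 and 0.0132).

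Psme1 and Psme2, whose proteins share a ring, gave no correlation that passed within either group. They had r = 0.00431 in SA_15% livers and −0.283 in Ctrl livers (adjusted p = 0.989 and 0.47). Psme1 varied with Psmb8, with r = 0.782 in SA_15% livers and 0.826 in Ctrl livers (adjusted p = 0.00048 each; rho 0.789 and 0.821, adjusted p = 0.00104 and 0.00088). Without the 2 farthest mice r was 0.744 in SA_15% livers and 0.665 in Ctrl livers. Psme2 and Psmb8 had r = 0.520 in SA_15% livers and −0.295 in Ctrl livers (adjusted p = 0.0629 and 0.275; rho 0.543 and −0.239). These last 4 correlations were added after the values were seen and were adjusted over 4.

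Chaperones that build the cap and the core also divided. Psmd5, Psmd9 and Psmd10 hold the ATPases while the cap forms and then leave. Psmd5 had 6.64, 6.86 and 7.49 in SA_15% livers, against 6.32, 6.66 and 6.86 in Ctrl livers. It was higher by 0.24 ± 0.07 (SE, adjusted p = 0.00751), with 7 SA_15% livers above the highest Ctrl liver, and kept its call after centring on array medians (0.20, adjusted p = 0.0188). Psmd9 had 6.84, 7.11 and 7.26 in SA_15% livers, against 7.10, 7.34 and 7.60 in Ctrl livers. All 15 lay below the Ctrl median, with a difference of −0.23 ± 0.05 (SE, adjusted p = 0.000768), while a second, dimmer probe gave −0.09 (adjusted p = 0.251). Psmd10 lay at the threshold (−0.11, adjusted p = 0.0501), and passed when any 1 of 8 mice was left out (adjusted p down to 0.0262; SA_15% mice 3, 6, 9 and 15, and Ctrl mice 2, 8, 12 and 14). Its other probes gave −0.03 and 0.05 (adjusted p = 0.566 and 0.403).

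Psmg1 and Psmg2 pair as a chaperone of the α ring. Psmg2 had 7.93, 8.16 and 8.29 in SA_15% livers, against 7.69, 7.96 and 8.15 in Ctrl livers, and was higher by 0.18 ± 0.05 (SE, adjusted p = 0.00328). Of the SA_15% livers 9 lay above the highest Ctrl liver. A second probe of almost the same brightness gave −0.02 (adjusted p = 0.738), and the call was lost after centring on array medians (0.10, adjusted p = 0.156). Psmg1 and Psmg3 did not pass (−0.07 and 0.09, adjusted p = 0.0995 and 0.103). Pomp, which helps the core mature, and Nfe2l1, the transcription factor that raises proteasome genes when the protease is blocked, did not pass either, with differences of 0.05 and −0.05 (adjusted p = 0.317 and 0.478). With Usp9x (0.07, adjusted p = 0.247) these were the 3 detected genes of the list of assembly and biogenesis factors without a Psm symbol.

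**Figure D4:**
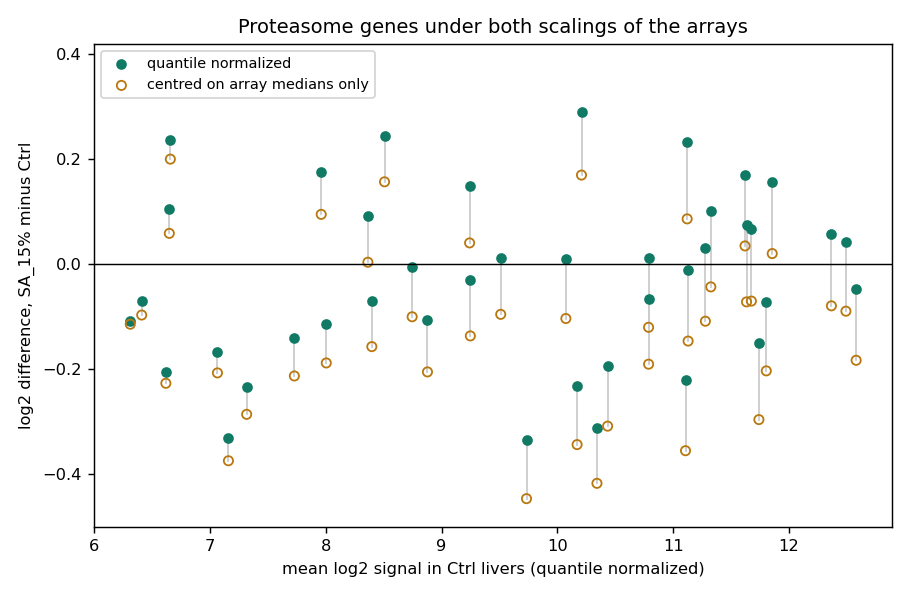
The log2 difference, SA_15% minus Ctrl (y axis), of the 41 genes against their mean log2 signal in Ctrl livers (x axis), after quantile normalization (filled) and after centring on array medians only (open), with a line joining both values of a gene. The members' median was −0.01 after quantile normalization and −0.11 after centring.

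The proteasome genes were bright, and the scalings differed for bright genes. Of the 41 genes 25 had a mean log2 signal of 9 or more in Ctrl livers, and their median level was 10.07, against 7.75 over all genes. Among all genes at 9 or more the median difference was −0.00 after quantile normalization and −0.12 after centring on array medians, and over all genes it was −0.01 and −0.07. Both scalings gave the same call for 29 genes, counting 2 higher, 13 lower and 14 not called. The 6 genes that became lower calls were Psma3, Psmb3, Psmb5, Psmb7, Psmd10 and Psmg1.

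Genes whose proteins deliver substrates to the proteasome or trim ubiquitin at it gave more lower than higher calls. Of 12 detected genes in the list of receptors, shuttles and associated enzymes, 7 were lower, 2 higher and 3 not called, with a median difference of −0.12, against −0.01 over all genes, where 19.5% were called lower and 18% higher. Uchl5 and Usp14, the deubiquitinases that dock on the cap, are of this list. Uchl5 had 7.93, 8.03 and 8.24 in SA_15% livers, against 8.18, 8.33 and 8.53 in Ctrl livers. Of the 15 SA_15% livers 14 lay below the lowest Ctrl liver, and the difference was −0.29 ± 0.04 (SE, adjusted p = 2.98e-07). Ecpas, a scaffold that binds cap and core, had a difference of −0.30 ± 0.04 (SE, adjusted p = 2.61e-06), and the ubiquitin ligase Ube3a one of −0.27 ± 0.05 (SE, adjusted p = 0.000163). Zfand2a, known as a proteasome-binding protein induced by arsenite, went the other way. It had 8.32, 8.89 and 9.55 in SA_15% livers, against 7.97, 8.33 and 8.64 in Ctrl livers, a difference of 0.58 ± 0.12 (SE, adjusted p = 0.000203), larger than that of any of the 41 proteasome genes.

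Of 9 detected genes of the segregase Vcp, which pulls ubiquitinated proteins out of complexes and membranes, and its cofactors, 3 were lower, 1 higher and 5 not called. Over all genes 19.5% were called lower and 18% higher. After centring on array medians 3 of the 9 were lower and 0 higher, where 27.7% of all genes were lower and 6.67% higher. Nploc4, the substrate adaptor of Vcp, had a difference of −0.23 ± 0.04 (SE, adjusted p = 0.000138) and Faf2 one of −0.22 ± 0.05 (SE, adjusted p = 0.000863). Syvn1, the ligase of endoplasmic reticulum degradation, was higher by 0.25 (adjusted p = 0.0261), and not called after centring on array medians (0.10, adjusted p = 0.459). Derl2, of the same route, had −0.16 (adjusted p = 0.0459), a call lost in 17 of the 30 fits that left out 1 mouse (adjusted p up to 0.0848). Vcp itself did not pass (0.04, adjusted p = 0.582). None of the 6 ubiquitin and activating enzyme genes listed was detected, and 5 of them were not analysed here.

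Peptides cut by the proteasome are loaded on MHC class I, and 10 genes of that route were detected. B2m, the light chain, was higher (0.12 ± 0.03, SE, adjusted p = 0.005), with all 15 SA_15% livers above the Ctrl median, but not after centring on array medians (0.08, adjusted p = 0.173). Nlrc5, the transactivator of these genes, was lower (−0.22, adjusted p = 0.0354), a call lost when any 1 of 8 mice was left out (SA_15% mice 8, 13 and 14, and Ctrl mice 1, 2, 7, 11 and 15; adjusted p up to 0.0646). H2-K1 had 0.22 (adjusted p = 0.102, down to 0.0348 with 1 mouse left out) and Erap1 −0.08 (adjusted p = 0.163), and the other 6 did not pass. After centring on array medians the route gave 0 higher and 3 lower calls, with Calr (−0.21, adjusted p = 0.0394) and Pdia3 (−0.19, adjusted p = 0.0467) lower beside Nlrc5. Under that scaling 6.67% of all genes were called higher and 27.7% lower.

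Interferon-responsive genes are given because interferon-γ is known to induce Psmb8, Psmb9, Psmb10, Psme1 and Psme2. Of 12 detected, 6 were higher, 0 lower and 6 not called, with a median difference of 0.31, where 18% of all genes were called higher. After centring on array medians 3 stayed higher, Usp18 (0.76) and Ifit3 (0.62) among them, where 6.67% of all genes were called higher. Usp18 had a difference of 0.85 ± 0.13 (SE, adjusted p = 3.32e-06), Ifit3 0.71 ± 0.14 (SE, adjusted p = 0.000234), Bst2 0.41 (adjusted p = 0.0171) and Isg15 0.29 (adjusted p = 0.0192). The calls of Bst2 and Isg15 were lost after centring (adjusted p = 0.0942 and 0.0799). Gbp3 (0.61, adjusted p = 0.0194) and Irf9 (0.33, adjusted p = 0.0281) were the other higher calls. Irf1 (0.15, adjusted p = 0.444), Irf8 (0.05, adjusted p = 0.675), Gbp2 (0.68, adjusted p = 0.109), Stat2 (−0.03, adjusted p = 0.663), Irf7 and Ifi35 did not pass. The list does not separate interferon-γ from other interferons. The summed signal of the 12 genes was 2755 to 5878 in SA_15% livers and 2129 to 8757 in Ctrl livers, the highest being Ctrl mouse 2. SA_15% mice 1 and 2 had the highest sums of their group and mice 13 and 14 the lowest. Their part in the levels of the inducible subunits and of Psme1 and Psme2 was not tested.

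In whole liver, fewer cells of a type and less RNA per cell cannot be told apart. Among all genes 18% were called higher and 19.5% lower, or 6.67% and 27.7% after centring on array medians. Kupffer cell and macrophage markers gave 4 higher and 0 lower calls of 10 detected in SA_15% livers (1 higher after centring on array medians), with Vsig4 at 0.61 (adjusted p = 0.00579) and Lyz2 at 0.48 (adjusted p = 0.0177). Their summed signal was 1708 to 4391 in SA_15% livers and 1157 to 4309 in Ctrl livers, with Ctrl mouse 2 again highest of its group. Of 9 sinusoidal endothelial markers 4 were higher (1 after centring), Fcgr2b (0.35, adjusted p = 0.000117) and Stab2 (0.20, adjusted p = 0.00411) among them, with sums of 3786 to 5454 in SA_15% livers and 3214 to 4576 in Ctrl livers. Of 3 red blood cell markers 2 were higher under both scalings, Hba-a1 (0.77, adjusted p = 1.06e-06) and Slc4a1 (0.23, adjusted p = 0.00286). Hepatocyte markers gave 2 higher and 3 lower of 7 under both scalings, with Serpina1a at −0.42 (adjusted p = 4.73e-08) and Hnf4a at −0.29 (adjusted p = 8.69e-05). The higher ones were Ttr (0.24, adjusted p = 0.000126) and Cyp2e1 (0.18, adjusted p = 0.00037). Of 14 lymphocyte markers 13 had a probe and 1 was detected, Cd3e (−0.06, adjusted p = 0.337). The 6 stellate cell markers detected, the neutrophil marker S100a8 and the cholangiocyte marker Cldn7 did not pass. The part of these markers in the differences of the proteasome genes was not tested.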

How the data were processed

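Liver RNA of 30 db/db mice was hybridised to Illumina mouse expression arrays, 1 per mouse. A group of the study given less sebacic acid was not analysed here. The authors deposited a table of non-normalized signal intensities with a detection p-value for each of 25697 probes, summarised in GenomeStudio 2009.2 per the labels, and a normalized table of intensities, which served only as an alternative input. Here the non-normalized values were quantile normalized and taken to log2 (R 4.3.3, limma 3.58.1). A probe was kept where its detection p-value was below 0.05 on 15 or more of the 30 arrays (11329 probes), and each gene was represented by its brightest detected probe (7905 genes). Gene symbols came from the platform annotation: 23978 probes had 1 symbol, 0 several and 1719 none, and 23962 were updated through their Entrez identifier. SA_15% was compared with Ctrl by lmFit and eBayes with Benjamini-Hochberg adjustment over the 11329 probes. The methods name a one-way ANOVA with a variance stabilised across probes, for which limma stands here. Log2 differences are SA_15% minus Ctrl. Summed signals are on the linear scale. Catalytic pairs and correlations were tested by permutation (scipy 1.17.1, 100000 resamples, two-sided). Sequences were RefSeq windows on GRCm38.p6. Scripts were tested on simulated data.

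Values over mice were given for the 4 called members with the largest increase and the 4 with the largest decrease, for Psmb5 to Psmb10 and for the smallest p-value in each class. Up to 4 genes of each associated list and 2 of each marker list were named by smallest p-value, and genes whose probes differ were named. Other members are given by class. Members and lists were chosen with earlier results of these data known. Slide and chip position are not given in the sources used here and were not modelled. Replicate numbers come from the sample titles. Same-numbered arrays deviated together in part (correlations −0.07 to 0.39, median 0.16, over 0.1 in 10 of 15 pairs). Of the 15 SA_15% arrays, 6 were most like the Ctrl array of their own number. The numbers were not taken to pair the mice in the main fit, and served as a block in an alternative fit. What same-numbered arrays share was not tested. Alternatives were other background corrections and scalings, detection filters, error models, array weights, a replicate block, the mean over probes, the methods' threshold, and leaving out each mouse. The number of arrays limits the precision.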

Additional observations from a re-analysis of the deposited data

How the results depend on the processing

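The count of called proteasome genes (8 higher, 13 lower) moved by more than 1.5 times under 2 settings. Centring on array medians gave 2 higher and 19 lower, and moved the medians of the list of receptors, shuttles and associated enzymes to −0.23, of the assembly factors to −0.062 and of Vcp and its cofactors to −0.16. The threshold of an unadjusted p of 0.001 and a fold of 1.3 gave 0 higher and 0 lower. In single genes 2 directions reversed: Psmd13 after centring on array medians (−0.043, adjusted p = 0.656) and Psmd12 when its detected probes were averaged (−0.14, adjusted p = 0.0186). The correlation of Psmb7 and Psmb10 in SA_15% livers was −0.405 after centring on array medians and no longer passed (adjusted p = 0.286). Leaving out each mouse gave 7 to 8 higher and 12 to 14 lower, 0.11 to 0.18 for Psmb8 against Psmb5, and 0.11 to 0.20 for Psmb9 against Psmb6. Both pairs passed only without Ctrl mouse 2. Over these settings other than the methods' threshold, 25 of the 41 genes, and 13 of the 21 called, kept their call or lack of one.

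Over these results neqc, normexp, the deposited normalized table, the trended prior and detection on all arrays changed calls of Psmd10 and Psmd13 only. With the replicate number as a block the counts were 8 higher and 14 lower, since Psmd10 passed (−0.11, adjusted p = 0.0243), and no other proteasome gene changed its call. An error pooled over all probes called Psmb10 (adjusted p = 0.0264) and lost Psmd11 (0.087) and Psmd13 (0.115). Array weights called Psmb3 (0.0451) and lost Psmc6 (0.0726). Without a filter on dim probes Psmc6 (0.0572) and Psmd13 (0.0533) were lost. The cause of these changes was not tested. Dim probes limit Psmc6 and Psmb9, which were not detected on every array and have no value where detection on all arrays was required. Probes of 1 gene differed in call for Psmb7, Psmc5, Psmd9, Psmd11, Psmd12 and Psmg2.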
